A study of Homo sapiens with 3 samples.

Results

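The promoters of IRX1, IRX2, IRX3, IRX4, IRX5, IRX6, MEIS1 and MEIS2 were examined in a promoter capture Hi-C (PCHi-C) data set of human cardiomyocytes. These 8 genes were taken from 25447 genes with an annotated transcript start on a promoter fragment that had a contact. A member promoter fragment was any promoter-side HindIII fragment holding a transcript start of one of these genes, and there were 9 of them among 19075 promoter fragments. PCHi-C joins DNA segments that lie near each other in the nucleus and enriches the joined products for promoters, so that each call pairs a promoter fragment with an interacting fragment. The material was 3 biological replicates of cardiomyocytes derived from the unmodified human embryonic stem cell line WA09 (H9), named hESC-CMs, which were enriched in lactate medium without glucose and checked for purity with the cardiac markers MYH7 and TNNT2. No second cell type or condition was analysed here, and a single cell line differentiated in culture is the model. Expression of the markers and of the 8 genes was not measured by this assay.

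Iroquois and MEIS proteins are transcription factors with a TALE-class homeodomain. The human Iroquois genes stand in 2 clusters, with IRX4, IRX2 and IRX1 on chromosome 5 and IRX3, IRX5 and IRX6 on chromosome 16. In the heart, IRX4 marks ventricular muscle, IRX3 acts in the ventricular conduction system and IRX5 helps to set the gradient of repolarisation, while MEIS proteins work with PBX and HOX partners and MEIS1 is known for its part in the cell cycle exit of cardiomyocytes. Genes of this kind are often flanked by gene deserts, long stretches without protein-coding genes in which regulatory elements lie far from the promoters they serve.

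The strength of each contact was given as a CHiCAGO score, which grows with the excess of read pairs over a background set by distance and technical noise. It is not a contact frequency. The lowest score listed was 5, so a contact missing from a replicate may have scored below that limit. Scores are printed as deposited, to 2 decimals, and a contact was counted once whichever of its fragments was listed first.

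Coordinates below are those of GRCh37. The first sequences show what the IRX3, IRX5 and MEIS1 promoters met at a distance, each read from the plus strand. They are the complete IRX3 partner with the highest mean score (chr16:54961526-54961771, in an exon of the long non-coding RNA gene CRNDE beside IRX5), the first 300 bases of the best partner shared by IRX3 and IRX5 (chr16:53807566-53807865, in intron 1 of FTO), the first 300 bases of the partner listed by the study for the cardiac VISTA enhancer mm1651 (chr16:54516839-54517138, between IRX3 and IRX5), and the highest-scoring complete MEIS1 partner of at most 300 bases (chr2:68062339-68062613, between ETAA1 and C1D). Capitals mark the bases AGCTT left by the HindIII cut at the first end and, inside the sequences, matches to TGACAG (a core sequence of MEIS sites) or to ACANNTGT (an Iroquois site). Matches were sought on both strands, and ACANNTGT, which reads the same on each, was counted once.
IRX3 partner at CRNDE: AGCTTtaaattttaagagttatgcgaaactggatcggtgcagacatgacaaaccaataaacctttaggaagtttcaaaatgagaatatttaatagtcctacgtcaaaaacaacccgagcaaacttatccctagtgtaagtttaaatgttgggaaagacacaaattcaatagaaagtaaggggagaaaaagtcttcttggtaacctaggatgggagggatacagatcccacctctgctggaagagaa
IRX3 and IRX5 partner in FTO: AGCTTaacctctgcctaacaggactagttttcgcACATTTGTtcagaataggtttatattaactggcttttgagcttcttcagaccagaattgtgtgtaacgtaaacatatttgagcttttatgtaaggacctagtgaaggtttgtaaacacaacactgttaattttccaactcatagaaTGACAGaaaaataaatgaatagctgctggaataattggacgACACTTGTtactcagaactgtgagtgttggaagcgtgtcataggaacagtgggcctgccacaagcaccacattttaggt
IRX3 and IRX5 partner at mm1651: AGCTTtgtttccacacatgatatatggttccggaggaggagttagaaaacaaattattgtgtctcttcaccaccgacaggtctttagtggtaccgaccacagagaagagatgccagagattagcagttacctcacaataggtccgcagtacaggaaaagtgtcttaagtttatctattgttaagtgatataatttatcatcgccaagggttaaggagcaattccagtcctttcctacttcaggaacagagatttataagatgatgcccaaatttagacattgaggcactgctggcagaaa
MEIS1 partner: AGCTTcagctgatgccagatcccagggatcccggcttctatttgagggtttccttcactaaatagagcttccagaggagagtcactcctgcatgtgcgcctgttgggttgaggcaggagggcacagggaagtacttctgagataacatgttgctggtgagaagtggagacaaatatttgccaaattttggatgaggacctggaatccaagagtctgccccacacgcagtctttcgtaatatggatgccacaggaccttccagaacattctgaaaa

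The FTO segment held 1 match to TGACAG and 2 to ACANNTGT, and the other 3 segments held none. Only the printed bases of these fragments were searched for these motifs. Their share over other interacting fragments was not computed, so the contrast between the segments has no reference. The study listed mm1651 on the fragment printed in part and on the fragment adjoining it. Where the enhancer lies within them was not determined here, so the printed bases may lie outside it. A match is a string of letters and was not tested for binding. RefSeq promoter sequences of GRCh38.p14, from 250 bases before to 50 bases after a transcript start, were matched for IRX1, IRX2, IRX4, MEIS1 and MEIS2, with 8 entries in all. None of the 8 held TGACAG, ACANNTGT or the core of the CTCF motif, all searched on both strands, and these were present in 15.76%, 5.62% and 2.41% of 35116 promoters. CTCF is the architectural protein that is found at many loop ends.

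A further set of 3 segments is given because the best IRX5 partner beside IRX3, the IRX3 promoter fragment and the farthest IRX3 partner called in every replicate each held the CTCF core. The core is in capitals, on the minus strand in the first (chr16:54314751-54314810), on the plus strand in the second (chr16:54321733-54321792) and on the minus strand in the third (chr16:55404913-55404972).
IRX5 partner beside IRX3: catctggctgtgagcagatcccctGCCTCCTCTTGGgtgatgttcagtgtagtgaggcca
IRX3 promoter fragment: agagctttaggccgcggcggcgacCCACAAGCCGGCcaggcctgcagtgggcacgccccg
IRX3 partner beyond IRX6: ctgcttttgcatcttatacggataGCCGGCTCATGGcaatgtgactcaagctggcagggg

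The core occurred in 11 of the 115 interacting fragments that were not themselves member promoters (9.57%), where fragments of a length within 10% held it in 6.86% on average. Among the 35 of them called in every replicate, 3 held it (8.57%, against 7.55% for fragments of like length). Over all fragments of the series the share was 11.2%. For the 3 fragments with printed cores, fragments of like length held it in 4.19%, 19.82% and 10.33%, in the order printed. The IRX5 promoter fragment, the highest IRX3 partner and the best partner shared by IRX3 and IRX5 did not hold it.

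The 9 promoter fragments had 163 distinct contacts in the union of the 3 replicates, and the MEIS1, IRX3 and IRX5 promoters held most of those that recurred. There were 100 contacts in replicate 1, 97 in replicate 2 and 94 in replicate 3 (97 ± 3, SD, n = 3). All 3 replicates called 45 of the 163 (27.6%, 95% Wilson interval 21.3 to 34.9%, counting error only), against 24% of all contacts of the series. Of the rest, 38 recurred in 2 replicates and 80 appeared in 1. Among the 147 member contacts that spanned 0.5 to 2 Mb, a range chosen after the distances had been seen, 43 (29.3%) were in every replicate against 23.1% of the series' contacts over the same span. At least 1 contact in every replicate was found for 5 of the 9 member fragments, and for 51.9% of all promoter fragments with a contact.

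The median distance of the pooled member contacts was 1128 kb. That of all same-chromosome contacts of the series was 716 kb. In replicates 1, 2 and 3 the pooled median was 1091, 1155 and 1087 kb (SD 38.5 kb). By fragment, the medians of IRX3 (643.5 kb) and IRX5 (649.8 kb) lay below that of the series. Those of MEIS2 (783.5 kb), the MEIS1 upstream and downstream fragments (1206.7 and 1198.2 kb) and IRX6 (1545.7 kb) lay above it. The IRX4, IRX2 and IRX1 medians (2413.2, 1663.2 and 1837.6 kb) also did, from 5, 4 and 2 contacts. The MEIS1 fragments gave 88 of the 163 contacts, and the 36 partners they shared were counted for each. More than 1 Mb was spanned by 99 of the 163 (60.7%), against 42.1% of same-chromosome contacts in the series. The MEIS1 upstream and downstream fragments gave 28 and 31 of these, while IRX3 gave 4 and IRX5 gave 6. No member contact was shorter than 100 kb (3.99% of the series were), and none joined different chromosomes (3.87% in the series). The nearest was at 128 kb and the farthest at 2834 kb.

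A gene desert was taken as a stretch of at least 500 kb between neighbouring protein-coding genes. The interacting fragment lay in a desert in 112 member contacts (68.7%), against 18.2% of the series' same-chromosome contacts, and the share was 73, 69.07 and 64.89% in replicates 1, 2 and 3. The desert name thus described some members and not others. MEIS1 alone gave 84 of the 112, out of its 88 contacts, while the other members had 28 of 75 contacts in a desert. All 5 IRX4 and all 4 IRX2 contacts were in a desert, as were 8 of 19 for IRX3, 6 of 19 for IRX5 and 5 of 12 for MEIS2. None of the 15 IRX6 contacts and neither of the 2 IRX1 contacts was in one. When long non-coding RNA genes were also taken to interrupt a desert, no member contact was left in one, against 4.41% of the contacts of the series. With a minimum length of 1 Mb the members' share was 12.3%, near the 11.4% of the series.

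The promoters differed widely in the number of their contacts. The MEIS1 promoter was represented by a pair of fragments, called upstream (chr2:66655565-66660927, shared with MEIS1-AS3) and downstream (chr2:66666185-66670392, shared with MEIS1-AS2). Together they held 7 of the 17 annotated MEIS1 transcript starts. The upstream fragment held 1, of a transcript that is not protein-coding, and the downstream fragment held 6, of which 2 were of protein-coding transcripts. The other coding starts of MEIS1, 6 in all with these 2, lay outside both fragments, and the stretch between them was not listed as a promoter fragment. The upstream fragment had 36, 27 and 30 contacts in replicates 1, 2 and 3, more than the 24, 26 and 20 of the downstream fragment. Of the promoter fragments in the series, 96.8% had fewer contacts than the upstream one and 96.2% fewer than the downstream one, in the union.

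IRX3 (chr16:54316961-54323196) had 14, 16 and 13 contacts and IRX5 (chr16:54961772-54965465, shared with CRNDE) had 15, 14 and 16. Their counts overlapped, and the union held 19 contacts for each, above 82.6% of promoter fragments. IRX6 (chr16:55355218-55362534) had 4, 6 and 7 contacts and 15 in the union, and MEIS2 (chr15:37387188-37394409, with 21 of its 38 transcript starts) had 6, 3 and 6 and 12 in the union. IRX6 and MEIS2 did not differ beyond their spread, and both lay below every value of IRX3 and IRX5.

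The chromosome 5 genes were the low end of the order. IRX4 (chr5:1875730-1892226, shared with IRX4-AS1) had 0, 3 and 2 contacts, IRX2 (chr5:2749100-2764564, shared with IRX2-DT) had 2, 2 and 0, and IRX1 (chr5:3590276-3608460) had 0, 1 and 1. These values overlapped one another. The IRX4, IRX2 and IRX1 fragments, of 16497, 15465 and 18185 bases, were longer than every other member fragment (3694 to 7317 bases). Whether fragment length bears on the counts was not tested. The median promoter fragment of the series had 6 contacts in the union, and IRX4 had 5, IRX2 had 4 and IRX1 had 2.

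**Figure D1:**
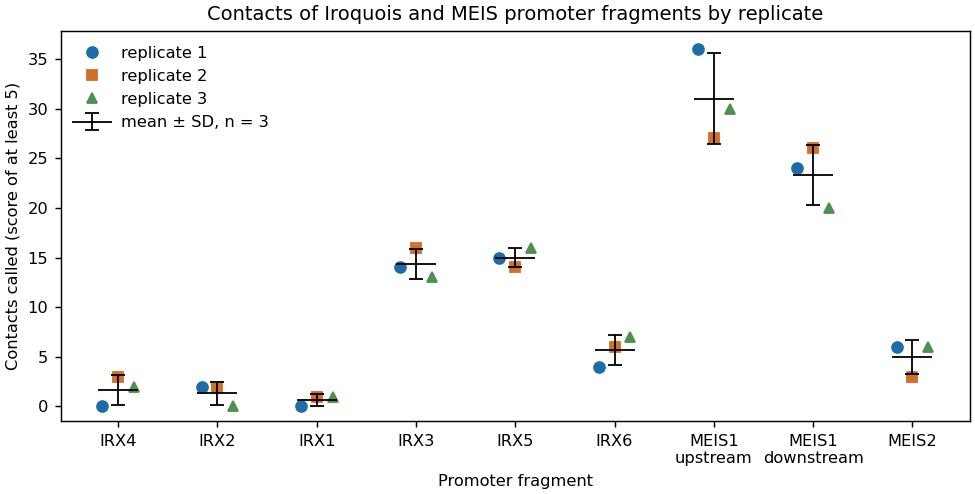
Contacts called for each member promoter fragment (y axis, number of contacts with a score of at least 5) in replicates 1, 2 and 3, with the mean and SD over the 3 replicates as black bars. Every MEIS1 value, from 20 to 36, lies above every IRX3 and IRX5 value, from 13 to 16, and the chromosome 5 genes have 0 to 3.

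The share of contacts found in every replicate did not follow the number of contacts. It was 11 of 19 for IRX5 and 10 of 19 for IRX3, then 16 of 46 for the MEIS1 upstream fragment, 8 of 42 for the MEIS1 downstream fragment and 1 of 12 for MEIS2. IRX6 had none of 15. IRX4, IRX2 and IRX1 had each of their contacts in a single replicate.

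**Figure D2:**
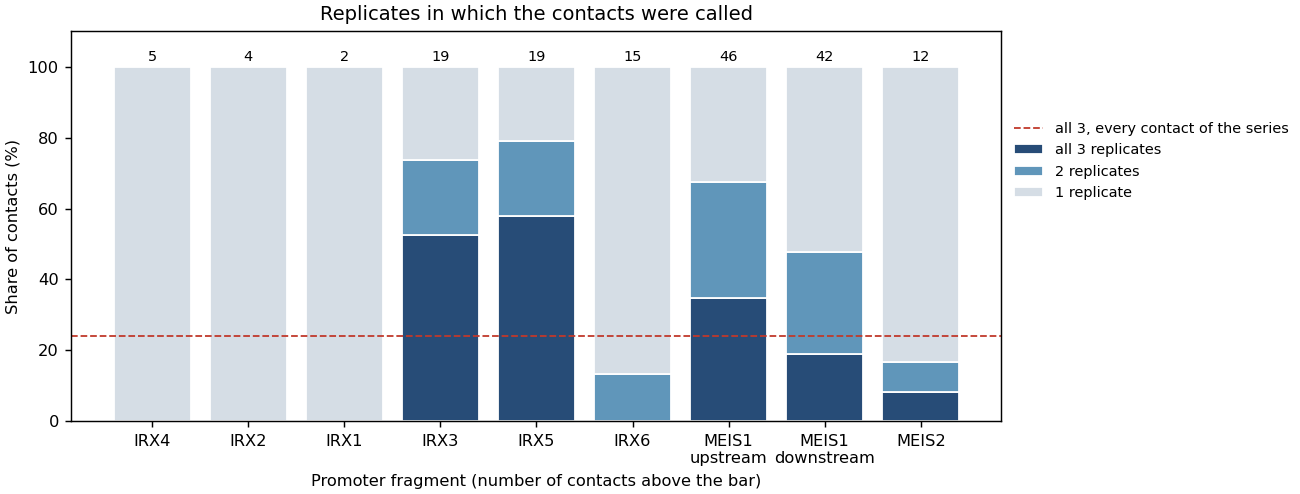
Share of each promoter fragment's contacts (y axis, %) that was called in all 3, in 2 or in 1 of the replicates, with the number of contacts above each bar and the share called in all 3 over the whole series (24%) as a dashed line. IRX3, IRX5 and the MEIS1 upstream fragment lie above that line.

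IRX3 and IRX5 met each other, and each met the sequence around the other's promoter. They lie 644 kb apart with no protein-coding gene between them. The contact between their promoter fragments scored 10.98, 8.75 and 8.92 in replicates 1, 2 and 3 (9.55 ± 1.24, SD, n = 3). The IRX3 promoter called 11 fragments in a run of 34.6 kb around IRX5 and CRNDE (chr16:54946895-54981536), 7 of them in every replicate. It called 9, 10 and 8 of them in the replicates in turn.

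The highest IRX3 score was not at the IRX5 promoter fragment itself but at the 246-base fragment next to it, in the CRNDE exon printed above. It scored 12.85, 16.07 and 16.93 (mean 15.3 ± 2.15, SD, n = 3). The next were chr16:54955077-54958052 over a CRNDE exon, with 11.67, 16.24 and 14.42, and chr16:54965466-54969769 over an IRX5 exon, with 11.68, 14.96 and 14.75. The means of these 3 fragments, 15.3, 14.1 and 13.8, differed by less than the SD of any of them. CRNDE starts close to IRX5 and shares its promoter fragment, so contacts of the 2 genes cannot be told apart.

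From the other end, the IRX5 promoter called 6 fragments in a run of 12.5 kb at IRX3 (chr16:54313414-54325914), and all 6 were called in every replicate. The highest were chr16:54314199-54315521, which holds the first CTCF core printed above, with 12.97, 13.57 and 13.31 (13.3 ± 0.301, SD, n = 3), and its neighbour chr16:54315522-54316960 with 11.39, 13.36 and 14.87 (13.2 ± 1.75). Both lie just beyond the IRX3 fragment on the FTO side. Both scored above the IRX3 promoter fragment itself in every replicate.

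FTO, a neighbouring gene that encodes an RNA demethylase, held contacts of all 3 promoters of the cluster. A fragment of 1379 bases in its intron 1 (chr16:53807566-53808944), the start of which is printed above, had the highest mean score of the IRX5 partners (14.1 ± 1.70, SD, n = 3), at a distance of 1155 kb. That mean exceeded those of the 2 best fragments beside IRX3 (13.3 and 13.2) by less than its own SD. Both scored above the FTO fragment in replicate 2 (13.57 and 13.36) and on the merged replicates (21.81 and 20.72 against 19.9). In replicate 3, 1 of them did (14.87). IRX5 scored 15.65, 12.28 and 14.29 at the FTO fragment and IRX3, at 512 kb, scored 8.31, 6.37 and 8.19. IRX6 called it in replicate 2 alone, with 8.24. No other promoter fragment of the series called this fragment.

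At that fragment every IRX5 score was above every IRX3 score, by 6.45 on average (SD of the differences 0.777, n = 3), although IRX5 is the farther gene. No test was made, since the fragment was picked for its mean IRX5 score. Scores of different promoter fragments are set against different backgrounds, so the difference is 1 of score, not of contact frequency.

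IRX5 had further contacts in FTO called in every replicate. The adjoining fragment chr16:53808945-53809471 scored 5.87, 9.39 and 8.69, and chr16:53811348-53814937, also in intron 1, scored 7.75, 6.11 and 5.83. Another, chr16:53979369-53981628 in intron 8, scored 5.53, 6.04 and 9.26. IRX3 had no other FTO contact, and its contacts were 17 upstream and 2 downstream of its start, while all 19 of IRX5 were upstream.

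A partner listed for mm1651, chr16:54516839-54517464, was called by both genes in every replicate. VISTA enhancers are elements tested for activity in mouse embryos. IRX3, at 197 kb, scored 5.13, 5.44 and 6.06, and IRX5, at 446 kb, scored 6.14, 6.19 and 8.38. The groups of scores did not overlap and the mean difference was 1.36 (SD of the differences 0.841, n = 3; exact two-sided permutation p = 0.1, adjusted p = 0.15). This is the smallest p that 3 replicates against 3 allow, so the design cannot reach the usual threshold. In all, 3 comparisons between member fragments were tested. Of the fragments listed for mm1651, the tested one was picked because both genes called it in every replicate. The test therefore decides nothing about a difference, and the scores of the genes are set against different backgrounds. The neighbouring fragment chr16:54517465-54519965, also listed for mm1651, was called by IRX3 in replicate 1 (5.27) and by IRX5 in replicates 1 and 3 (5.99 and 5.37).

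Apart from these 2 fragments, the FTO fragment and a fragment between AKTIP and RPGRIP1L, IRX3 and IRX5 shared no partner. The 4 shared fragments were 21.05% of the partners of each gene. The farthest IRX3 partner called in every replicate lay beyond IRX6, between IRX6 and MMP2, a gene of a matrix metalloproteinase (chr16:55403291-55406473, 1085 kb). It scored 6.21, 9.93 and 10.71, and it holds the third CTCF core printed above. Contacts per replicate of IRX3 and IRX5 differed by 0.667 (SD of the differences 2.52, n = 3; exact two-sided permutation p = 0.8, adjusted p = 0.8), within the spread.

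**Figure D3:**
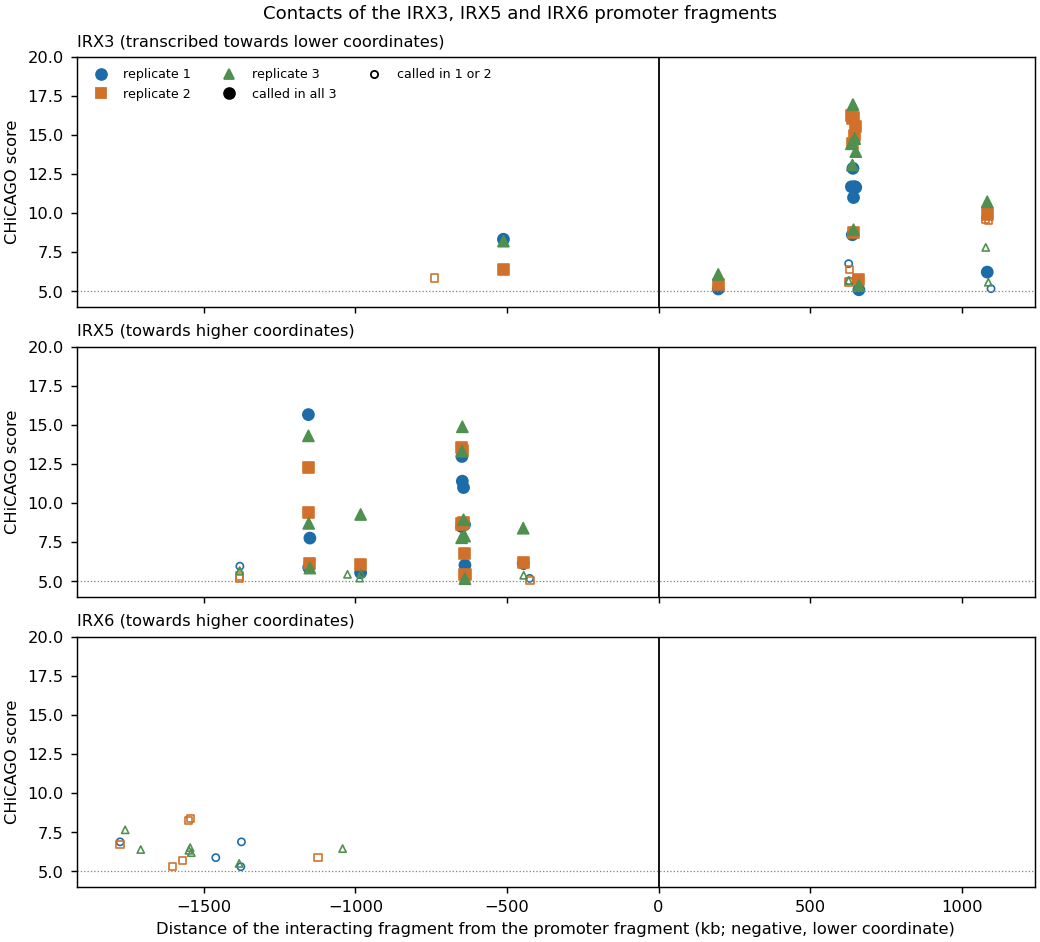
CHiCAGO scores (y axis) of the IRX3, IRX5 and IRX6 contacts against the distance of the interacting fragment from the promoter fragment (x axis, kb), with a marker per replicate and filled markers for contacts called in all 3. IRX3 and IRX5 have mirrored groups near 644 kb, IRX5 has a group near 1155 kb in FTO, and IRX6 has open markers only, all beyond 1 Mb.

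IRX6 kept to distant, weakly scored contacts in the same region. Its 15 contacts were all upstream and all spanned over 1 Mb, from 1043 to 1777 kb, with scores from 5.28 to 8.37. Of these, 11 lay over FTO or RPGRIP1L, which encodes a protein of the ciliary transition zone. In a run of 5 fragments in FTO intron 1 it called none in replicate 1 and 3 each in replicates 2 and 3. The contacts in more than 1 replicate were chr16:53811348-53814937 in FTO intron 1, with 8.37 and 6.50 in replicates 2 and 3, and chr16:53581704-53582304 between AKTIP and RPGRIP1L, with 6.87 and 6.72 in replicates 1 and 2.

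IRX6 lies 395 kb from IRX5 and 1039 kb from IRX3, and no contact with either promoter fragment was called. It shared 6 partners with IRX5, which were 40% of its own and 31.58% of those of IRX5. With IRX3 it shared 1. The overlap of partner sets, as a Jaccard index (shared partners over all partners of the pair) in the union, was 0.214 for IRX5 and IRX6 and 0.118 for IRX3 and IRX5. The promoter fragment most like IRX3 by this index was that of FTO and RPGRIP1L, which start close together (0.167). It had 9 contacts, none in every replicate, and the 4 it shared with IRX3 lay downstream of IRX5 and beyond IRX6.

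The MEIS1 promoter reached across a protein-coding neighbour into a second desert. Of its contacts, 40 of 46 from the upstream fragment and 39 of 42 from the downstream fragment lay downstream of the promoter fragment. Among the latter, chr2:66796444-66796733 lay over a MEIS1 exon, within the gene. Beyond the gene on that side, the MEIS1 to ETAA1 interval is 824 kb and the ETAA1 to C1D interval is 629 kb long. ETAA1 encodes an activator of the ATR kinase at stalled replication forks and C1D a cofactor of the nuclear exosome.

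The highest scores of all 9 member fragments were in the ETAA1 to C1D interval, 1.4 Mb from MEIS1. The upstream fragment called 11 fragments in a run of 21.6 kb (chr2:68058080-68079690), 7 of them in every replicate, with 8, 10 and 9 of them in the replicates in turn. Its highest partner, chr2:68067568-68069383 at 1410.2 kb, scored 23.89, 19.53 and 14.64 (19.4 ± 4.63, SD, n = 3). The neighbouring chr2:68065385-68067567 scored 13.57, 16.59 and 22.55, and chr2:68073526-68076273 scored 12.34, 14.75 and 17.96.

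The first of these was highest in replicates 1 and 2 and the next in replicate 3, and the 3 means of 19.4, 17.6 and 15.0 overlapped within their SDs. The printed 275-base fragment at the near end of the run scored 8.97, 7.62 and 12.41. No protein-coding or long non-coding RNA gene overlapped the fragments of the run.

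The downstream fragment called 10 fragments of the same run, 5 of them in every replicate. Its highest partner was chr2:68069384-68073525 with 16.40, 16.35 and 15.19 (15.98 ± 0.685, SD, n = 3), followed by chr2:68065385-68067567 with 7.86, 15.61 and 18.89 and chr2:68073526-68076273 with 13.07, 14.03 and 10.61. The middle partner was lowest in replicate 1 and had the widest spread (SD 5.66).

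A second run lay further on, at the C1D end (chr2:68254770-68270916). The upstream fragment called 7 of its fragments, 4 in every replicate and 1 over a C1D exon. The farthest in every replicate, chr2:68266504-68267714 at 1609 kb, scored 7.32, 8.43 and 5.33. From the downstream fragment, the farthest in every replicate was chr2:68254770-68258118 at 1588 kb, with 8.43, 7.00 and 15.64, about level in replicates 1 and 2 and high in replicate 3.

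Nearer MEIS1 the contacts scored lower. In the MEIS1 to ETAA1 interval the upstream fragment called 6 fragments at chr2:67434366-67451065, 1 of them in every replicate, and 4 at chr2:67544196-67551391, none in every replicate. Both runs lie over the non-coding RNA gene LINC01829. The fragment with the ETAA1 promoter (chr2:67621709-67626069, 966 kb) was called from the upstream fragment with 9.95, 8.65 and 8.20 (8.93 ± 0.909, SD, n = 3), and from the downstream fragment in replicate 3 alone, with 5.42.

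On the other side, in the SPRED2 to MEIS1 interval of 1001 kb, the upstream fragment called 4 fragments at chr2:65945347-65953035. SPRED2 encodes an inhibitor of Ras signalling. There were 4, 2 and 4 of them in the replicates, 2 were in every replicate, and the highest was chr2:65950577-65952835 with a mean of 7.61 ± 0.899 (SD, n = 3). The downstream fragment called 3 of this run, none in every replicate.

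The MEIS1 fragments are 10 kb apart and mostly shared their partners. They had 36 in common, 78.26% of those of the upstream fragment and 85.71% of those of the downstream fragment, and a Jaccard index of 0.692. The next most similar promoter fragment was that of CEP68, a centrosomal protein, with 0.102 and 0.087. Partners called in every replicate from both fragments numbered 7. Over these the mean score was 14.3, 13.5 and 14.4 from the upstream fragment and 10.2, 11.8 and 13.2 from the downstream fragment, with no overlap.

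The mean difference in score was 2.29 (SD of the differences 1.59, n = 3), given without a test since these partners were picked by their calls. The difference in contacts per replicate was 7.67 (SD of the differences 5.86, n = 3; exact two-sided permutation p = 0.1, adjusted p = 0.15). In replicate 2 it was a single contact, 27 against 26.

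**Figure D4:**
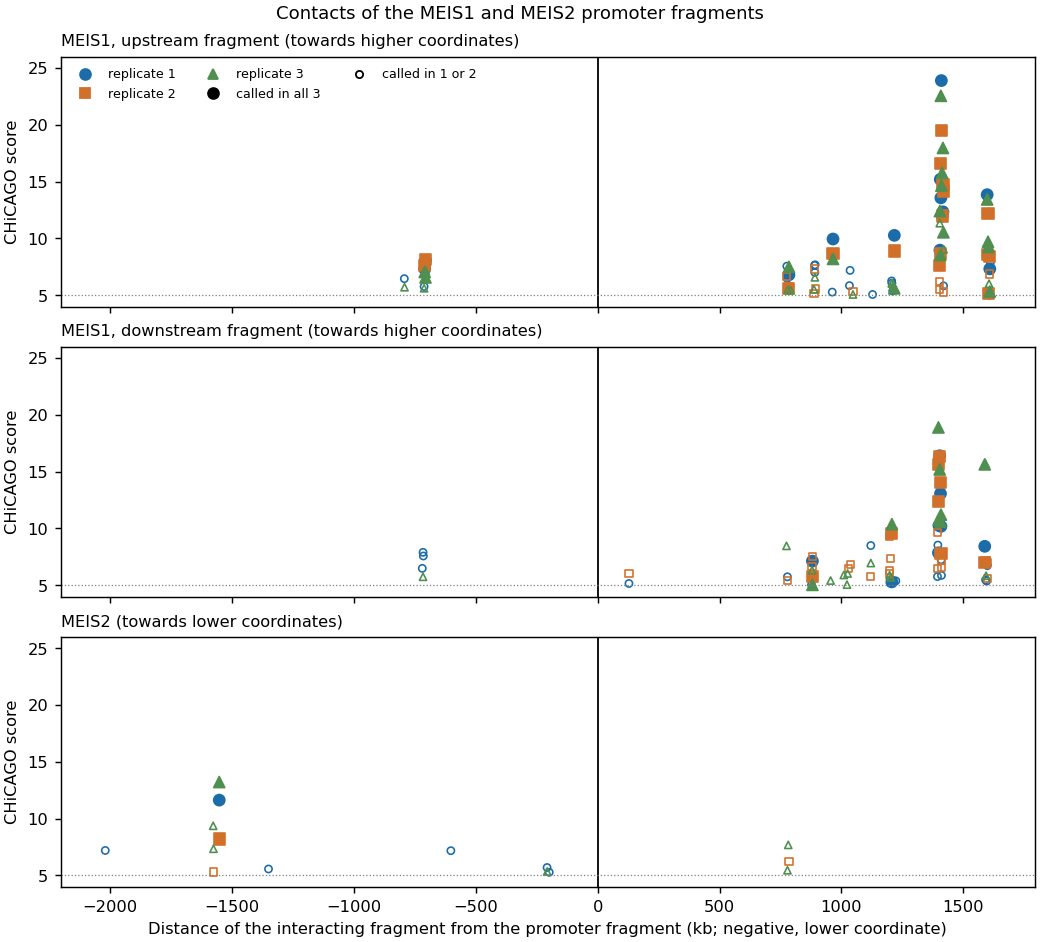
CHiCAGO scores (y axis) of the contacts of both MEIS1 fragments and of MEIS2 against distance from the promoter fragment (x axis, kb), with a marker per replicate and filled markers for contacts called in all 3. The highest MEIS1 scores, up to 23.89, lie near 1.4 Mb, with a second group near 1.6 Mb, and MEIS2 has 1 partner with filled markers, near 1553 kb on the downstream side.

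MEIS2 had a single contact in every replicate, with the promoter fragment of DPH6, an enzyme of diphthamide synthesis, and of its divergent transcript DPH6-DT (chr15:35837137-35838929). It scored 11.62, 8.20 and 13.21 (11.0 ± 2.56, SD, n = 3) over 1553 kb. No other promoter fragment of the series called this fragment. A DPH6 exon near it, chr15:35812779-35813480, was called in replicates 2 and 3, with 5.30 and 9.36, and was the only MEIS2 partner in 2 replicates.

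The other 10 MEIS2 contacts were in single replicates. They included 3 fragments within the MEIS2 gene itself, 199 to 208 kb from the promoter, with scores from 5.27 to 5.69. Another 3 lay at chr15:38167602-38177340 on the upstream side, in the MEIS2 to TMCO5A interval of 821 kb, with 7.68 and 5.45 in replicate 3 and 6.21 in replicate 2. The 3 fragments adjoin one another, but no fragment was called in more than 1 replicate.

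In the chromosome 5 cluster no contact was called in more than 1 replicate, and none of the 11 was called on the merged replicates. IRX4 and IRX2 pointed the same way, upstream and across the rest of the cluster into the interval of 1539 kb between IRX1 and ADAMTS16, a metalloproteinase gene. All 5 IRX4 contacts and all 4 IRX2 contacts lay there. The fragment chr5:4296599-4297736 was called by IRX2 in replicate 2 with 9.53, at 1540.3 kb, and by IRX4 in replicate 3 with 5.81, at 2413 kb. It was the highest IRX2 score and the only partner the IRX genes of this cluster shared.

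Next in score for IRX2 were chr5:4542096-4543555 with 8.75 and chr5:4797819-4799118 with 5.80, both in replicate 1. IRX2 also called chr5:3608461-3608788, which adjoins the IRX1 promoter fragment, in replicate 2 with 5.13. For IRX4 the highest scores were 6.32 at chr5:4709002-4709337 and 5.95 at chr5:4717985-4718364, both in replicate 2. The latter, at 2834 kb, was the longest contact of any member.

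IRX1, at the far end of the cluster, had its 2 contacts on the other side. In replicate 3 it called chr5:1670526-1671363, between LPCAT1 and MRPL36, with 7.64, and in replicate 2 chr5:1850679-1854653, between NDUFS6 and IRX4, with 6.27. No contact between the promoter fragments of IRX4, IRX2 and IRX1 was called, whereas the IRX3 and IRX5 promoters contacted each other in every replicate. Read pairs per fragment were not analysed here, so the depth behind the low counts on chromosome 5 is unknown.

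Higher score limits kept the order of the promoters in part. With a score of at least 7 in every replicate, contacts in all 3 replicates numbered 11 for the MEIS1 upstream fragment, 6 for the downstream fragment, 6 for IRX3, 5 for IRX5 and 1 for MEIS2. With at least 10 they numbered 5, 3, 4, 3 and 0. IRX6 and the chromosome 5 genes had none at either limit.

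Among the other TALE-class genes, PBX2, PBX3, PBX4, PKNOX2, TGIF1, TGIF2 and MKX had a promoter fragment with a contact. PBX proteins and PKNOX2 are cofactors that bind DNA together with MEIS or HOX proteins, TGIF1 and TGIF2 are repressors and MKX is a tendon factor. Their contacts numbered 32, 2, 5, 25, 1, 9 and 30 in that order, with 10, 0, 1, 11, 0, 3 and 14 in every replicate. Their median distances were 187 to 666 kb, so the median distances of both MEIS1 fragments (1207 and 1198 kb) were above those of these 7, while those of IRX3 and IRX5 (644 and 649.8 kb) were within their range.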

How the data were processed

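The deposited PCHi-C calls covered 3 biological replicates, and a set made on the replicates merged. Per the study's methods, the authors mapped reads with HiCUP and called contacts with CHiCAGO, and the deposited values are CHiCAGO scores of 5 or more between HindIII fragments of GRCh37. Tool versions are not given in the sources used here. All 124 member and partner fragments began and ended at HindIII sites of GRCh37.

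Transcript starts were taken from GENCODE 44 lifted to GRCh37. Contacts were unordered fragment pairs in the union of the replicates, matched between replicates by identical coordinates, with distances between fragment midpoints. Runs join partners at most 20 kb apart. A mean score is given only over replicates that called the contact. There was 1 condition, so no group comparison was made. Exact permutation tests over replicates, without pairing, compared member fragments. No test was made at the FTO fragment or over the shared MEIS1 partners, which had been picked by score or by calls. The mm1651 fragment was tested although it had been picked by its calls. Wilson intervals cover counting error only. Read depth is unknown. The replicates are labelled as biological, and SDs measure the spread between them.

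The members, gene lists and rules were chosen with earlier results of these data known. Named partners were the 3 with the highest mean score among those called in the most replicates, and the farthest called in all 3. Non-member genes named are those that bracket deserts, hold or contact named fragments, or have the most similar partner sets. Not every gene of the TALE-class list is reported here. Other partners and intervals given for IRX1, IRX2, IRX5, IRX6, MEIS1 and MEIS2 were chosen after their values were seen.

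Alternatives were score limits of 7 and 10, each replicate left out, the first listed column only, starts of coding transcripts only, merged calls, matching within 5 kb, spans of at most 2 Mb and other desert definitions. Scripts were tested on simulated calls. Software was Python 3.11.15 with numpy 2.4.6, pandas 2.3.3, scipy 1.17.1 and matplotlib 3.10.9.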

Additional observations from a re-analysis of the deposited data

How the results depend on the processing

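Values here are for all 9 fragments together. Contacts per replicate, 97 as reported, were 48.67 with scores of at least 7, 21.67 with at least 10 and 148 on the merged replicates. Leaving out a replicate gave 95.5 to 98.5. The share called in all replicates, 27.6% as reported, was 35.9% with scores of at least 7, 50% with at least 10 and 62.58% when a called fragment of the same promoter within 5 kb was a match. With a replicate left out, the share called in both others was 40.44 to 44.85%, which has fewer replicates to satisfy. The median distance, 1128 kb, was 1204 kb with scores of at least 7, 1403 kb with at least 10 and 1009 kb on the merged replicates, and 1097 to 1137 kb with a replicate left out.

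The share in a gene desert, 68.7%, was 73.33% with scores of at least 10, 58.12% with coding transcript starts only, 75.68% on the merged replicates, 12.27% with deserts of at least 1 Mb and 0% when lncRNA genes interrupted deserts. It was 67.88 to 71.32% with a replicate left out. Spans of 0.5 to 2 Mb only, an alternative chosen after seeing the data, gave a share in all replicates of 29.25%. Leaving out replicate 2 took the mean number of IRX4 contacts from 1.67 to 1, and was the only such removal, of 27, to move a fragment's mean by over 1.5 times. No paired analysis of groups was made, since there was 1 condition. The comparisons of member fragments share replicates, and exact sign flips within replicates, which pair them as a block and were added after seeing the data, gave p = 0.25 for the mm1651 scores (difference 1.36), p = 0.25 for the MEIS1 contacts (7.67) and p = 0.75 for the IRX3 and IRX5 contacts (0.667), with adjusted p = 0.375, 0.375 and 0.75 over the 3 comparisons. The smallest p they allow is 0.25. Scores below 5 and read counts were not used, so weak contacts and depth limit every count.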
